A study of Mus musculus with 4 samples.

Results

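The chemokine ligands outside the type 2 group were examined in BALF cells, the cells recovered by bronchoalveolar lavage, after bleomycin. The set was a list of 33 gene symbols, covering the CC, CXC, XC and CX3C families apart from the eosinophil and type 2 attractants, and it was split into 6 groups by the leukocyte each ligand attracts. A gene was measured by its brightest probe whose accession belongs to that symbol. Of the 33 genes, 31 had such a probe, and 27 of these passed the scanner's flag for signal well above background on both arrays of one genotype or of both and could be tested, among 27158 probes tested in all. Cxcl11 and Ccl21a had no probe by this rule, and Cxcl5, Ppbp, Ccl20 and Cxcl12 did not pass the filter.

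The study compared wild-type with S1pr2-/- mice, both given intraperitoneal bleomycin at 0.035 U/g, an agent that injures the lung and leads to fibrosis, and per the labels cells were collected at day 22. S1pr2 encodes a receptor for the lipid mediator sphingosine-1-phosphate, disrupted throughout the body in the mutant. Per the methods, wild-type littermates from heterozygous breeding served as controls, on a mixed background that includes C57BL/6J, crossed back once to that strain, and the mice were 8 to 10 weeks old. Each genotype had 2 one-color arrays from independent experiments, all on 1 slide with 1 scan, with no saline group, and pooling of mice for an array is not stated in the sources used here.

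Chemokines are small secreted proteins that guide leukocytes through G protein-coupled receptors. CC chemokines such as Ccl2 mainly draw monocytes and lymphocytes, CXC chemokines that bind CXCR2 draw neutrophils, and those that bind CXCR3 draw activated T cells and NK cells. Alveolar macrophages are a main source of inflammatory chemokines in the airspace, and many of the genes are switched on by NF-kB or by interferons.

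The targeted gene went against the labels. The S1pr2 probe read -0.13 and -0.16 (log2) in wild-type but 2.67 and 2.54 on the 2 arrays labelled S1pr2-/- (the knockout-labelled arrays from here on), so its signal was higher where the gene should be disrupted. Where this probe lies relative to the disrupted part was not examined, and every direction below follows the labels. The sample records name the cells alveolar macrophages, and 10 of 10 measured markers of these cells (Marco, Pparg, Chil3 and others) were well above background on all 4 arrays. Markers of T cells (9 of 9), of B cells (8 of 8) and of lung epithelium (10 of 10) were too. A probe can carry this flag while its value lies at the floor of -6.64 set below. The B cell marker Cd79a did so on 2 of the 4 arrays. Per array, 67.5% to 72.1% of probes passed as well above background.

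Values are log2 of the probe's signal over the 75th percentile of its array, with a floor of -6.64. They are set against each other only between arrays for the same probe, since probes differ in brightness. A fold change is the knockout-labelled arrays minus the wild-type arrays. With 2 arrays against 2, an exact permutation test cannot give a two-sided p under 0.333, and the p-values of limma measure only the spread between these arrays.

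After Benjamini-Hochberg adjustment over all probes, limma called 0 ligands at an adjusted p under 0.05, as it called 0% of all probes. By the rule of the methods (over 1.5-fold with an unadjusted p under 0.05, here from limma), 2 of the 27 ligands, Cxcl3 and Ccl4, were lower on the knockout-labelled arrays, or 7.4% against a background of 1.62% of all probes. On the higher side the count was 0 ligands, with a background of 0.486%. Both knockout-labelled arrays lay below both wild-type arrays for 8 ligands (29.6%, background 21.8%), lay above them for 4 (14.8%, background 20.0%), and overlapped with them for the remaining 15. Among the 4, Cxcl13 passed the filter through the knockout-labelled arrays alone. An unadjusted p under 0.05 with no fold threshold was reached by 4 ligands on the lower side (Ccl25 and Cxcl15 besides those named, background 5.59%) and by 1, Cx3cl1, on the higher side (background 3.99%). The median log2 fold change was -0.19 over the 27 ligands and -0.003 over all probes. For 18 of the 27 the 2 arrays of a genotype differed by more than the genotypes did, which held for 70.1% of all probes. Cxcl3, Ccl4, Ccl8 and Cxcl13 also stand in the gene table of the paper, which was chosen on these arrays, so their differences are not independent evidence of that table.

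**Figure D1:**
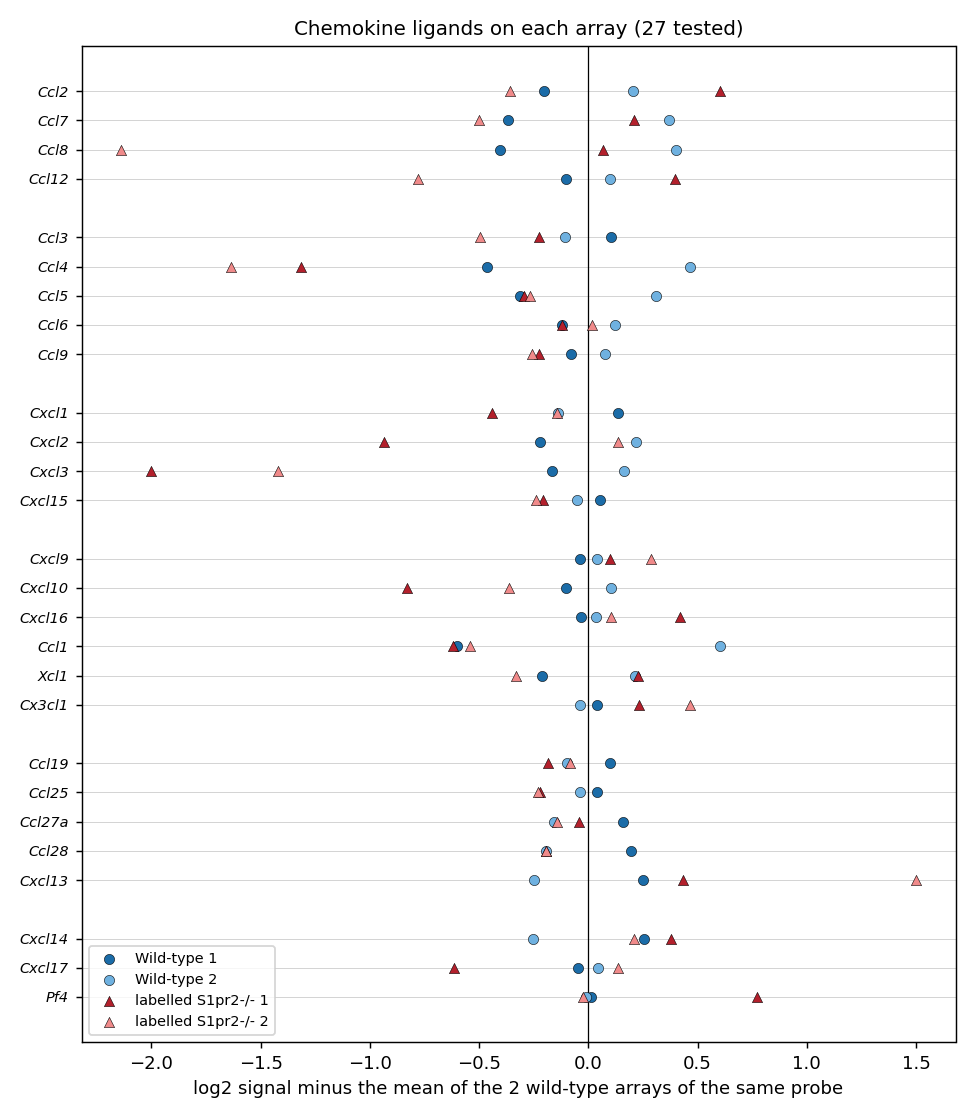
Signal of the 27 tested ligands on each array, as the log2 value minus the mean of the 2 wild-type arrays of the same probe (x axis), with a row per gene and a gap between the 6 ligand groups. Circles are wild-type arrays and triangles the knockout-labelled arrays. Both triangles lie left of both circles for 8 genes, furthest for Cxcl3 and Ccl4.

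The neutrophil attractants held the largest difference. These ligands of CXCR2 include Cxcl1, Cxcl2 and Cxcl3, close relatives that lie side by side with Cxcl15 in a run of ligand genes on chromosome 5. The window around the gene start is shown for these 3 because they share a site while their signals differed. In capitals stand the bases that match the consensus of NF-kB, a factor that switches on inflammatory genes. The sequences are from RefSeq (GRCm38.p6), on the strand of the gene, from 250 bases before the start to 50 after it.

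Cxcl3 (chr5:90785851-90786150, + strand): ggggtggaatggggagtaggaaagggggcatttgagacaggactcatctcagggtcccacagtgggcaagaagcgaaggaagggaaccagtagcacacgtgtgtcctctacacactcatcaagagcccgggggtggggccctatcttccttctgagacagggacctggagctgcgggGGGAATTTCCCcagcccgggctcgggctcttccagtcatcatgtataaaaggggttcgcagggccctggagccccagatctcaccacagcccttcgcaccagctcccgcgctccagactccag

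Cxcl2 (chr5:90903649-90903948, + strand): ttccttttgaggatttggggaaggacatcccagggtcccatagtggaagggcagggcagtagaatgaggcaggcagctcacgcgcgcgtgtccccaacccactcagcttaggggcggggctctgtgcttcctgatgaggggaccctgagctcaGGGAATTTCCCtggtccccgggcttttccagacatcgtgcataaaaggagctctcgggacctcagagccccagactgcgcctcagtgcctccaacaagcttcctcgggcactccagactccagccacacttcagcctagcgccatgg

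Cxcl1 (chr5:90890995-90891294, + strand): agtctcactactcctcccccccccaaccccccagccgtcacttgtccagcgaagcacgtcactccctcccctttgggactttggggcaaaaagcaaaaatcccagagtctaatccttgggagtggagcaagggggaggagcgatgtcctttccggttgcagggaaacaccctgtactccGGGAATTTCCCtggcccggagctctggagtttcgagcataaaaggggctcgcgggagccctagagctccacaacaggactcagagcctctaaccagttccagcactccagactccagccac

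All 3 windows hold the same 11 bases, GGGAATTTCCC, in which matches on the 2 strands overlap. The stretch begins 73 bases before the start of Cxcl3, 97 before that of Cxcl2 and 71 before that of Cxcl1. The NF-kB consensus, searched on both strands, was found in 7 of the 28 windows listed for 25 of the ligands, and in 4.5% of all 32851 windows of this length. The TATA box letters TATAAA, searched on both strands, were present in the window of Cxcl3 and not in those of Cxcl1 and Cxcl2. They were found in 10 of the 28 windows and in 13.6% of all. The search took exact letters only, and the windows of Cxcl1 and Cxcl2 hold CATAAA, which differs in its first letter.

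Cxcl3 read -2.14 and -1.81 (log2) in wild-type and -3.98 and -3.40 on the knockout-labelled arrays. Both of the latter lay more than 1 log2 unit below both wild-type arrays. Its log2 fold change was -1.71 (standard error (SE) 0.27, adjusted p = 0.509 from limma), a signal 3.28-fold lower, and it stayed between -2.0 and -1.42 with each array left out in turn. Cxcl3 was lower past 1.5-fold with an unadjusted p under 0.05 under every alternative setting.

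Cxcl2 had -4.66 and -4.22 on the wild-type arrays against -5.37 and -4.30, so that only the first knockout-labelled array stood apart and the groups overlapped (log2 fold change -0.40, SE 0.45). Without that array the difference was 0.13. Cxcl1 had -3.87 and -4.15 against -4.45 and -4.16, a log2 fold change of -0.29 (SE 0.17) with an interval from -0.80 to 0.21. The second values of the 2 genotypes were nearly equal for Cxcl1.

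The difference between Cxcl3 and its neighbours on the same array was then taken, a comparison chosen after the values were seen. The size of such a gap carries no meaning between probes, but its change between arrays does. The Cxcl3 to Cxcl2 gap was 2.52 and 2.41 in wild-type and 1.4 and 0.91 on the knockout-labelled arrays. Against Cxcl1 the gap was 1.73 and 2.34 in wild-type and 0.48 and 0.76 on the knockout-labelled arrays. Neither gap overlapped between the genotypes, and since the genes were picked for it this is a description with no test.

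Cxcl15, a CXC chemokine made by lung epithelium, was lower by a small amount that depended on the scaling, with -4.87 and -4.98 in wild-type and -5.13 and -5.16 on the knockout-labelled arrays (log2 fold change -0.22, SE 0.068, adjusted p = 0.518 from limma). It was -0.09 under quantile normalization and -0.04 with normexp background correction. Epithelial markers had a median log2 fold change of -0.35, and 7 of 10 were lower on both knockout-labelled arrays (background 21.8%). Their summed levels were 31.2 and 34.3 in wild-type and 25.0 and 40.9 on the other arrays in units of the 75th percentile. Scgb1a1, 1 of the 3 markers that overlapped, weighed most in these sums. It gave 3.76 and 4.12 (log2) in wild-type and 3.51 and 4.82 on the knockout-labelled arrays. The part of epithelial cells in the Cxcl15 signal was not tested. Cxcl5, which epithelium makes, was well above background on 1 array of each genotype and above the floor only on the second wild-type array, at -5.34. Ppbp, a platelet chemokine, was well above background on the second wild-type array alone, at -6.19. These last 2 genes had too little signal to compare.

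The main receptor of this group was lower as well. Cxcr2, the receptor through which neutrophils follow these ligands, gave 0.30 and 0.36 in wild-type and -0.15 and -0.37 on the knockout-labelled arrays, a log2 fold change of -0.59 (SE 0.10, adjusted p = 0.509 from limma). At 1.51-fold lower it lay close to the 1.5-fold threshold. With each array left out in turn the Cxcr2 difference ran from -0.70 to -0.48, the latter short of 1.5-fold. Cxcr1 was higher instead, with 2.70 and 2.38 against 3.02 and 2.94 (log2 fold change 0.43, SE 0.14, adjusted p = 0.521 from limma). Of 10 neutrophil markers tested, Cxcr2 and Retnlg were lower by the rule of the methods (background 1.62%). Retnlg was 28.1-fold lower, the largest difference in this list. On both knockout-labelled arrays 5 markers were lower (background 21.8%) and 1, Elane, was higher (background 20.0%), and S100a8, Camp, Ltf and Mpo overlapped. The summed level was 90.9 and 102 in wild-type and 75.1 and 68.7 on the other arrays. Of the 11 markers with a probe, 10 were well above background on all 4 arrays, the granule genes Camp, Ltf, Mpo and Elane among them, and 1, Ngp, on none. The part of neutrophils in the Cxcl3 difference was not tested. In bulk RNA, fewer cells of a type and less RNA per cell cannot be told apart.

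**Figure D2:**
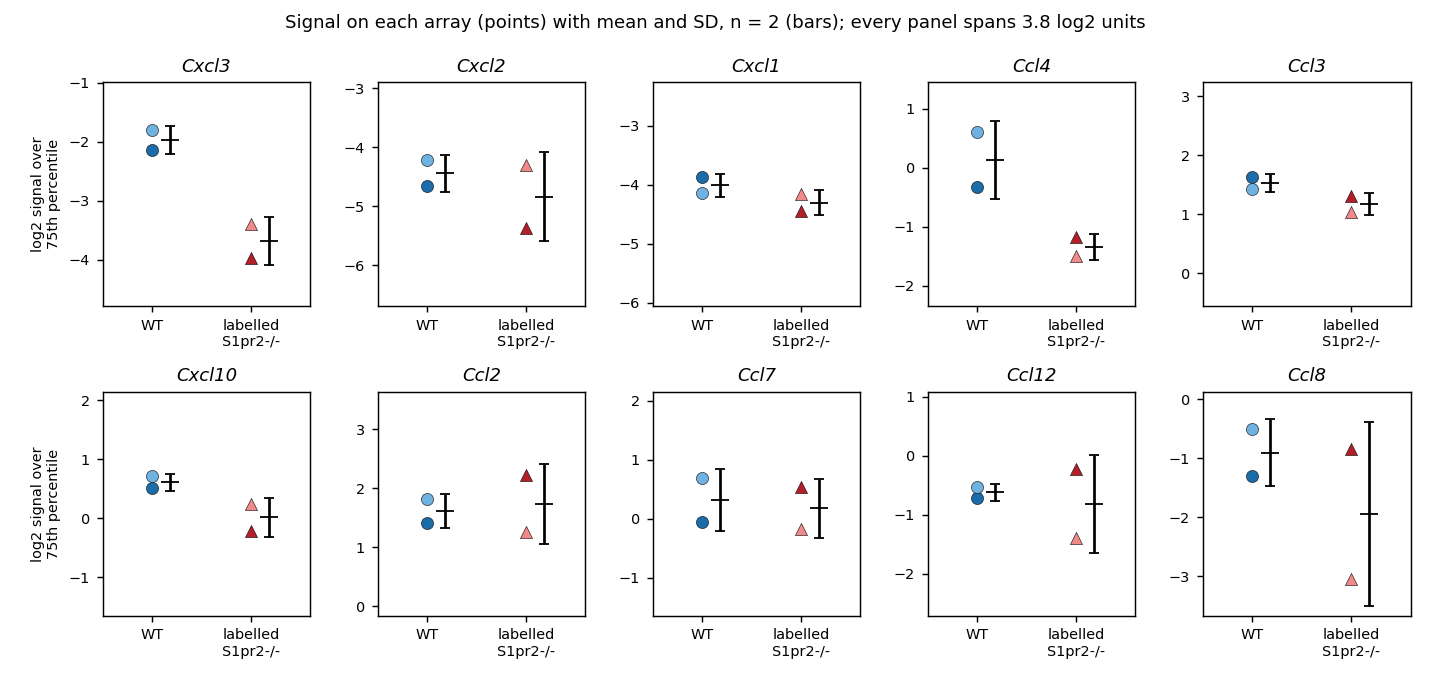
Signal of 10 ligands on each array (points, log2 over the 75th percentile of the array) with the mean and SD of each genotype (bars, n = 2). Each panel spans the same range of log2 units. Cxcl3 and Ccl4 separate by genotype, Cxcl1, Ccl3 and Cxcl10 separate narrowly, and Cxcl2 and the CCR2 ligands overlap.

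The ligands that draw monocytes, macrophages and T cells, several of them through CCR1, all had a negative log2 fold change, but only Ccl4 passed the rule of the methods. Their median was -0.28 over 5 genes, with 3 of them lower on both knockout-labelled arrays (background 21.8%). Ccl4 (MIP-1 beta, an attractant of macrophages and T cells) gave -0.33 and 0.60 in wild-type and -1.18 and -1.50 on the knockout-labelled arrays. The wild-type arrays differed by 0.93, yet both lay above both other arrays. Its log2 fold change was -1.48 (SE 0.39, adjusted p = 0.515 from limma), a signal 2.78-fold lower, and -1.01 without the second wild-type array. The call rested on both knockout-labelled arrays: with the first of them left out Ccl4 stayed 1.63 lower on the log2 scale with an unadjusted p of 0.0988 from limma, and with the second left out 1.32 lower with 0.142. The call was also lost with no filter (unadjusted p 0.0659 from limma), the percentile over detected probes (0.0608) and the replicate block (0.0554). The methods' t-test lost it too (unadjusted p 0.0953 from that test).

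Ccl3 (MIP-1 alpha), which lies next to Ccl4 and binds CCR1, had 1.64 and 1.43 in wild-type and 1.31 and 1.04 on the knockout-labelled arrays (log2 fold change -0.36, SE 0.14, adjusted p = 0.544 from limma). The groups did not overlap but differed by far less than for Ccl4. The gap of the Ccl4 probe to the Ccl3 probe was -1.97 and -0.83 in wild-type and -2.49 and -2.54 on the knockout-labelled arrays, a change of -1.11, likewise given with no test.

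Ccl9, a CCR1 ligand made constitutively by myeloid cells, gave 5.33 and 5.49 against 5.19 and 5.15 (log2 fold change -0.24, SE 0.082, adjusted p = 0.524 from limma). This narrow gap kept its sign with each array left out, between -0.32 and -0.16. Ccl6, a further myeloid CCR1 ligand, gave 7.44 and 7.68 against 7.44 and 7.58, so the groups overlapped, with an interval from -0.42 to 0.31 around -0.05. Ccl5 (RANTES), made largely by T cells and NK cells, gave 3.04 and 3.67 in wild-type and 3.06 and 3.09 on the knockout-labelled arrays. Only the second wild-type array was high for Ccl5, and without it the difference was 0.03.

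Ccr1, the receptor of several of these ligands, was lower on both knockout-labelled arrays (-2.54 and -2.37 against -2.69 and -3.07, log2 fold change -0.42, SE 0.17). T cell markers had a median log2 fold change of -0.47 over 9 genes, of which Lck and Cd28 were lower by the rule of the methods (background 1.62%) and 6 lay lower on both arrays (background 21.8%). Their summed level was 18.9 and 21.1 in wild-type and 16.8 and 12.2 on the knockout-labelled arrays, and Cd8a and Cd3g stayed well above background on all 4. Eosinophil markers were lower too, 5 of 7 by the rule of the methods (background 1.62%). These 5 were 13.3-fold to 48.0-fold lower, with Prg2 at 40.1-fold, Epx at 23.0-fold and Ccr3 at 22.1-fold among them. Epx lay at the floor on the first knockout-labelled array, and Ccr3 stands in the paper's gene table, chosen on these arrays. Ear6 was 1.73-fold lower, short of the rule, and Ear1 overlapped. The summed level of that list, 80.1 and 96.7 against 70.2 and 85.6, was held up by Ear1, a gene alveolar macrophages also express. The part of either cell type in the Ccl4 and Cxcl3 differences was not tested.

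The monocyte attractants that bind CCR2 differed between arrays more than between genotypes. Ccl2 (MCP-1), the main CCR2 ligand, was read by 10 spots per array. It gave 1.41 and 1.82 in wild-type and 2.22 and 1.26 on the knockout-labelled arrays, with an SD over the spots of each array between 0.038 and 0.067. The 2 knockout-labelled arrays were the highest and the lowest of the 4, 0.96 apart. The log2 fold change was 0.12 with an interval from -1.12 to 1.37, too wide to place the difference on either side.

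Ccl7 (MCP-3), the gene next to Ccl2, gave -0.05 and 0.69 in wild-type and 0.53 and -0.18 on the knockout-labelled arrays, with a log2 fold change of -0.15 (SE 0.40). Ccl12 (MCP-5) gave -0.72 and -0.52 in wild-type and -0.23 and -1.40 on the other arrays, with -0.19 (SE 0.47). Ccl8 (MCP-2), beside Ccl12 in the same run of genes on chromosome 11, gave -1.31 and -0.50 in wild-type and -0.84 and -3.04 on the knockout-labelled arrays. Its log2 fold change of -1.04 (SE 0.92, adjusted p = 0.713 from limma) came from the second knockout-labelled array, and without it was 0.07.

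All 4 of these ligands had their lowest value on the second knockout-labelled array, which was the lowest array for 23.9% of all probes. The same array was the lowest of the 4 for 11 of the 27 ligands. The receptor Ccr2, which monocytes carry, was also lowest there, with 1.30 and 1.28 in wild-type and 1.72 and 1.02 on the other arrays. Summed markers of monocyte-derived macrophages were 132 and 62.5 in wild-type and 147 and 96.9 on the knockout-labelled arrays, and their lowest array was the second wild-type one. Apoe weighed most in these sums, at 6.16 and 3.74 (log2) in wild-type and 6.04 and 5.14 on the knockout-labelled arrays. Of the 9 markers tested, 5 lay higher on both knockout-labelled arrays (background 20.0%), 1 lay lower (background 21.8%) and 3 overlapped. With the replicates of the CCR2 ligands this far apart, no difference between the genotypes was detectable for these ligands.

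**Figure D3:**
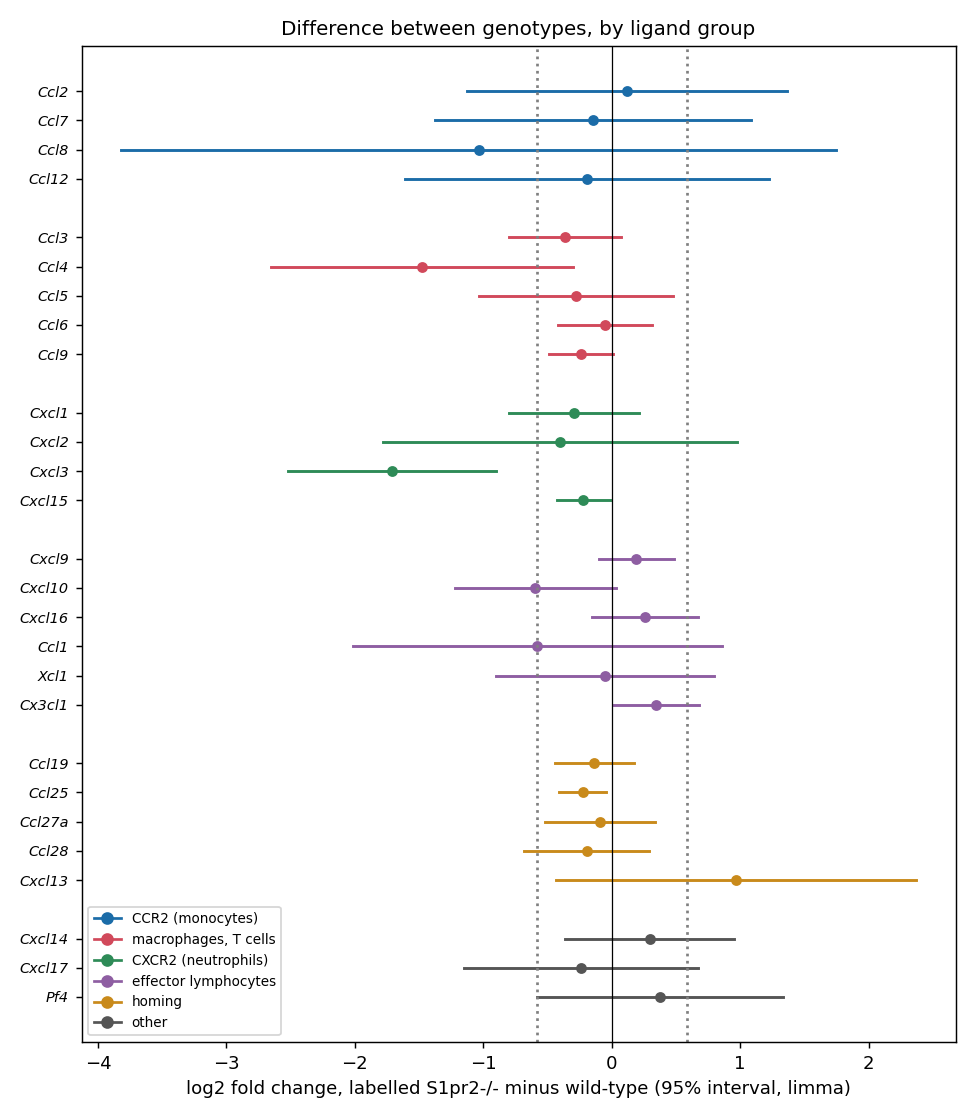
Log2 fold change of the 27 tested ligands, the knockout-labelled arrays minus wild-type (x axis), with the 95% interval from limma, coloured by ligand group. Dotted lines mark 1.5-fold in each direction. The intervals of Cxcl3 and Ccl4 lie wholly below 0, while those of Ccl2, Ccl7, Ccl8 and Ccl12 span more than 2 log2 units.

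The ligands that draw effector lymphocytes were split in direction, with a median of 0.07 over 6 genes. Cxcl10, an interferon-induced CXCR3 ligand, gave 0.51 and 0.71 in wild-type and -0.22 and 0.25 on the knockout-labelled arrays, without overlap. Its log2 fold change was -0.59 (SE 0.21, adjusted p = 0.527 from limma), 1.51-fold lower, and its interval from -1.22 to 0.03 reached 0. It passed the rule of the methods under some other settings, which are given with the alternatives.

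Cxcl10 carries NF-kB matches of its own, and its window is shown here, a choice made after the values were seen. Its neighbour Cxcl9 has no NF-kB match in the same window. The windows of both genes differ in other motifs as well. The ISRE, an interferon response element, had 1 match for Cxcl10 and 0 for Cxcl9. The TATA box letters had 0 matches for Cxcl10 and 1 for Cxcl9. Whether any of these motifs bears on the direction of either gene was not tested.

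Cxcl10 (chr5:92348840-92349139, - strand): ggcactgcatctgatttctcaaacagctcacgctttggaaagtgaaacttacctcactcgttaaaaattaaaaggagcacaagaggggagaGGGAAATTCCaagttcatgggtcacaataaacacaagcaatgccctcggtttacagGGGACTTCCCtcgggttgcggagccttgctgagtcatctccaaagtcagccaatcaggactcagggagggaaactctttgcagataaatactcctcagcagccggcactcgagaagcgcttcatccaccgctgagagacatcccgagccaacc

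The capitals mark 2 separate stretches, which begin 159 and 103 bases before the start. The AP-1 motif TGANTCA, searched on both strands, was present in the windows of both Cxcl10 and Cxcl9, in 6 of the 28 windows of the ligands and in 7.8% of all windows. A match is a description of the sequence and does not show that a factor binds there.

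Cxcl9, also a CXCR3 ligand induced by interferon gamma, gave -1.32 and -1.25 in wild-type and -1.19 and -1.0 on the knockout-labelled arrays (log2 fold change 0.19, SE 0.096, adjusted p = 0.589 from limma). Its second probe gave 0.16 (SE 0.12). Cxcl9 and Cxcl10 thus lay on opposite sides, each without overlap between the genotypes and neither past the rule of the methods. Cxcl16, a ligand of CXCR6 that macrophages carry on their surface, gave 1.62 and 1.69 against 2.08 and 1.76 (log2 fold change 0.26, SE 0.14).

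Cx3cl1, the ligand of CX3CR1 on monocytes and NK cells, was higher on both knockout-labelled arrays, with 1.35 and 1.28 in wild-type and 1.55 and 1.78 on the other arrays (log2 fold change 0.35, SE 0.11, adjusted p = 0.519 from limma). Its receptor Cx3cr1 lay on the same side, with 2.33 and 1.77 against 2.90 and 2.53 (log2 fold change 0.67, SE 0.27, adjusted p = 0.544 from limma). Markers of monocyte-derived macrophages, Cx3cr1 among them, had a median of 0.54, with 5 of 9 higher on both arrays (background 20.0%); their part was not tested. Ligand and receptor were thus both higher on both knockout-labelled arrays, neither past the rule of the methods.

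Ccl1, a T cell product that binds CCR8, was raised on the second wild-type array alone (-5.36 and -4.16 against -5.38 and -5.30), and the difference was 0.02 without it. Xcl1, made by T cells and NK cells and read by XCR1 on cross-presenting dendritic cells, gave -3.14 and -2.71 in wild-type and -2.70 and -3.25 on the other arrays, an overlap in both directions. The receptors Cxcr3 (log2 fold change -0.23, SE 0.20), Cxcr6 (-0.21, SE 0.45) and Xcr1 (-0.21, SE 0.20) overlapped as well.

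The homing ligands, which place lymphocytes and dendritic cells in lymphoid and mucosal tissue, had a median of -0.13 over the 5 genes tested of 8. Cxcl13, the B cell attractant that binds CXCR5, was dim: it gave -6.15 and the floor in wild-type and -5.96 and -4.90 on the knockout-labelled arrays. It was well above background on 1 of the 2 wild-type arrays and entered the test only through the knockout-labelled arrays, where it was higher, so its test is no support for a difference. Cxcl13 was 1.95-fold higher with this floor (log2 fold change 0.97, SE 0.46, adjusted p = 0.581 from limma). The interval, from -0.44 to 2.37, included 0. Its range was 0.43 to 1.5 with each array left out, and under other scalings and floors the value lay between 0.17 and 1.39.

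Its receptor went the other way. Cxcr5 gave -2.97 and -3.36 in wild-type and -3.76 and -3.80 on the knockout-labelled arrays, lower by the rule of the methods (log2 fold change -0.61, SE 0.16, adjusted p = 0.515 from limma). It was 1.53-fold lower, and ran from -0.81 to -0.42 with each array left out, the latter short of 1.5-fold. B cell markers were uneven, with summed levels of 1.92 and 0.742 in wild-type and 0.855 and 0.645 on the other arrays and a median of -0.64, and the high value was that of the first wild-type array. Their part in the Cxcr5 signal was not tested.

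Ccl25, a CCR9 ligand of thymus and gut, was lower by a small amount on all comparisons of arrays, with -0.27 and -0.35 against -0.53 and -0.54 (log2 fold change -0.23, SE 0.061, adjusted p = 0.515 from limma). Its second, dimmer probe, to a non-coding transcript of the gene, was uneven in wild-type, at -3.57 and -5.88, and gave -0.96 (SE 0.90). Ccl19, a CCR7 ligand, gave -0.13 (SE 0.10) on its brightest probe and -0.23 (SE 0.062) on another, and Ccl27a gave -0.09 (SE 0.14) on its brightest probe and 0.11 (SE 0.075) on its dimmest. Ccl28 was at the floor on 3 arrays. Ccl20, the CCR6 ligand, stayed under the well-above-background flag on all 4 arrays, and Cxcl12, the CXCR4 ligand of stromal cells, lay at the floor on all 4.

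Of the receptors of this group, Ccr7, which directs dendritic cells and T cells to lymph nodes, gave 3.26 and 3.60 in wild-type and 2.94 and 2.99 on the knockout-labelled arrays (log2 fold change -0.47, SE 0.14, adjusted p = 0.518 from limma). Dendritic cell markers, with Ccr7 among them, had a median of -0.21, 3 of 7 lay lower on both arrays (background 21.8%), and their sums were 12.6 and 15.9 against 10.8 and 10.5; their part was not tested. Ccr6 overlapped (log2 fold change -0.38, SE 0.54), as did Cxcr4 (-0.03, SE 0.12), Ccr9 (-0.17, SE 0.23) and Ccr8 (-0.02, SE 0.21). Ccr10, at -0.85 (SE 0.41), had its second knockout-labelled array at the floor, and it stands in the paper's gene table, chosen on these arrays.

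The last 3 ligands overlapped between the genotypes. Cxcl14, an epithelial chemokine, gave 1.15 and 0.64 against 1.27 and 1.1 (log2 fold change 0.30, SE 0.22). Cxcl17, a mucosal chemokine of the airways, gave -2.04 and -1.94 against -2.61 and -1.85, with only the first knockout-labelled array low. Pf4, a platelet chemokine that macrophages also transcribe, gave 0.74 and 0.72 against 1.5 and 0.70, and its difference of 0.38 came from the first knockout-labelled array. Without that array the difference was -0.02, and the platelet genes Gp9 and Gp6 were not well above background on any array.

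**Figure D4:**
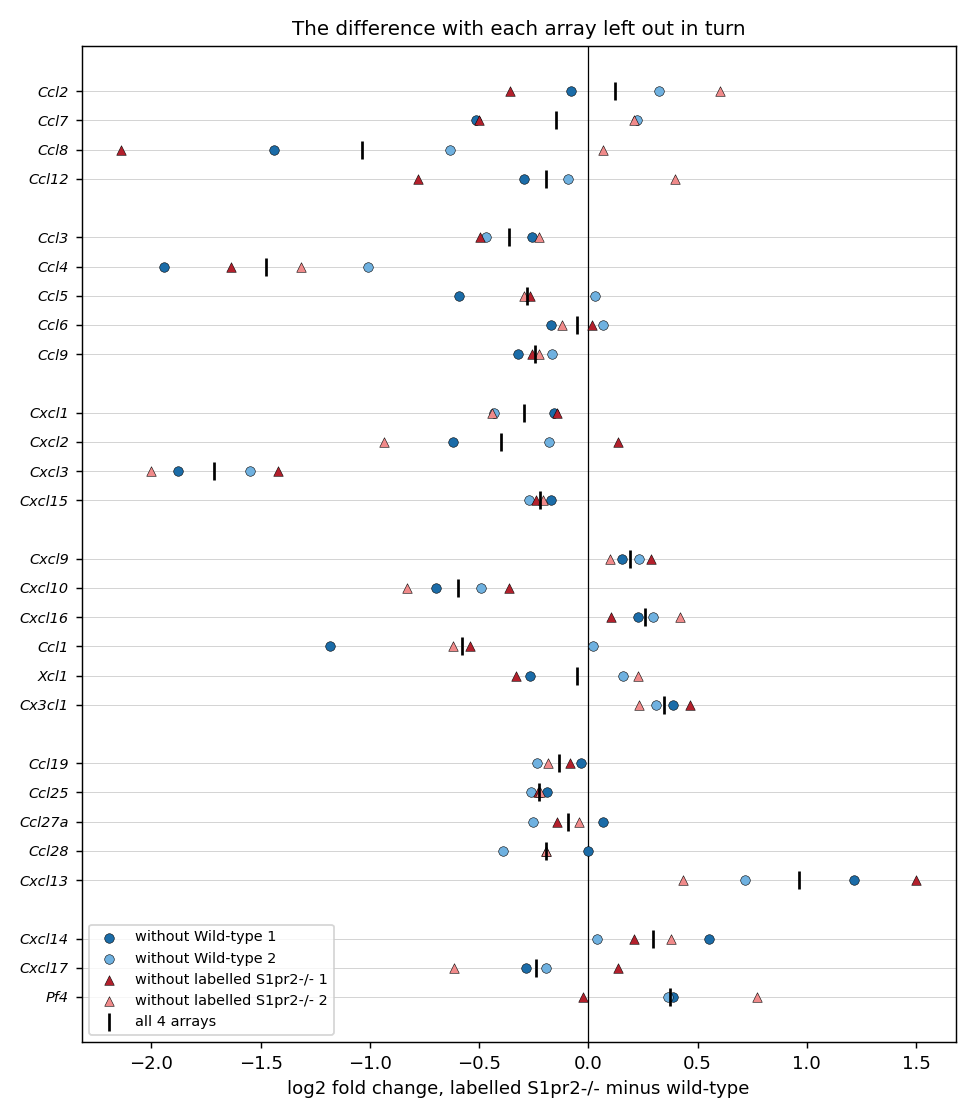
Log2 fold change of each tested ligand with all 4 arrays (bars) and with each array left out in turn (points, x axis in log2 units). Cxcl3 and Ccl4 stay below -1 in every case, and points of Ccl2, Ccl7, Ccl8 and Ccl12 fall on both sides of 0.

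The genes that switch these ligands on were read from a list of 17 inducers and feedback genes, 16 of them tested. Il1b and Il6 were lower by the rule of the methods (2 of 16, background 1.62%), and 0 were higher (background 0.486%). On both knockout-labelled arrays 11 lay lower (background 21.8%) and 0 lay higher (background 20.0%). The median was -0.24. Il1b gave 2.11 and 2.25 in wild-type and 0.91 and 0.42 on the knockout-labelled arrays (log2 fold change -1.51, SE 0.21), and Il6 gave -3.81 and -3.34 against -5.51 and -5.10 (-1.73, SE 0.25), both at an adjusted p of 0.509 from limma. Il1b, Il6 and Ifng stand in the paper's gene table, chosen on these arrays.

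Tnf, a strong inducer of Cxcl1, Cxcl2 and Ccl2, overlapped, with -0.53 and -0.99 in wild-type and -0.69 and -0.59 on the other arrays (log2 fold change 0.12, SE 0.19). Feedback genes that NF-kB switches on were split: Tnfaip3 gave 1.77 and 1.99 against 1.43 and 1.34 (-0.50, SE 0.11), Nfkbiz gave -0.34 (SE 0.078), and Nfkbia overlapped at 0.04 (SE 0.11). Among inducers of the CXCR3 ligands, Ifng gave -2.33 and -0.90 against -3.02 and -2.87 (log2 fold change -1.33, SE 0.57), uneven in wild-type, Irf1 gave -0.45 (SE 0.13), and Ifnb1 was not tested. Each of Tnfaip3, Nfkbiz, Ifng and Irf1 was lower on both knockout-labelled arrays, and none passed the rule of the methods (adjusted p between 0.509 and 0.555 from limma).

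Over the 20 receptors of these ligands, 18 were tested, 2 (Cxcr2 and Cxcr5) were lower by the rule of the methods (background 1.62%), 0 were higher (background 0.486%), 5 lay lower and 2 higher on both knockout-labelled arrays, and the median was -0.19. These shares of 5 and 2 in 18 stand beside backgrounds of 21.8% and 20.0%. The scavenging receptors Ackr3 and Ackr4 were not well above background on any array, and Ackr1 lay at the floor on all 4. For comparison, the type 2 chemokines had log2 fold changes of -8.20 (SE 0.72) for Ccl24, -1.17 (SE 0.23) for Ccl17 and -0.71 (SE 0.40) for Ccl22. Ccl24 thus lay far beyond any ligand described here. Its knockout-labelled arrays lay at -5.83 and at the floor, and its value ran from -8.22 to -6.78 under other scalings and floors. Ccl24 and Ccl17 stand in the paper's gene table, chosen on these arrays.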

How the data were processed

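Cy3-labeled cRNA from BALF cells of 2 wild-type and 2 S1pr2-/- bleomycin samples was hybridized to a whole mouse genome 4x44k design. The authors deposited the intensity of each spot, background-subtracted by Feature Extraction (version 11.0.1.1 in the file headers, 10.7.3.1 in the sample records). The authors also deposited a table of log2 values, centred on the wild-type arrays; 99.6% of its 39429 probes lay within 0.01 of the scanner values on all 4 arrays. No spot was saturated (0 spots per array); 115 to 273 flagged spots per array were left out.

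The intensity was divided by the 75th percentile of the array (2489 to 2817 intensity units), set to at least 0.01, and taken as log2. Accessions of 69.5% of probes matched 1 gene of RefSeq (GRCm38.p6). Coordinates are given for the RefSeq windows alone, since the design was annotated on another build. The number of arrays limits the precision. limma 3.58.1 in R 4.3.3 (lmFit, eBayes) was fitted to the 27158 probes that passed the background flag on both arrays of either genotype, with Benjamini-Hochberg adjustment, and tested on simulated data. All ligands, their receptors, 17 inducers, and cell type markers beside a ligand result were named by list; 1 item of these lists is not reported here by name. Members and lists were chosen with earlier results of these data known. Alternatives are given in the closing section.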

Additional observations from a re-analysis of the deposited data

How the results depend on the processing

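Under the alternatives run, limma called 0 ligands, receptors and inducers at an adjusted p under 0.05 in either direction. The count of 2 ligands lower by the rule of the methods was 1 with the percentile over detected probes, with no filter and with the methods' t-test (Ccl4 was the one lost), and 4 by 1.5-fold alone; the count of 0 higher became 1 by 1.5-fold alone (Cxcl13). With each array left out there were 2 to 4 lower, the 4 without the first wild-type array, and 0 to 1 higher, the 1 without either knockout-labelled array. Cxcl10 passed the rule under cyclic loess, normexp, no floor, the authors' log2 table, probes detected on all arrays, the replicate block and without the second knockout-labelled array. Receptors lower by the rule, 2 in the report, were 1 under quantile normalization, no filter and the methods' t-test, 0 with the percentile over detected probes, normexp and a 2-fold threshold, and 0 to 2 with each array left out (0 without the second knockout-labelled array). Receptors higher were 1 under normexp, the replicate block, the mean of a gene's probes and 1.5-fold alone, and 0 to 2 with each array left out (2 without the first wild-type array). Inducers lower, 2 in the report, were 2 to 5 with each array left out, the 5 without the first wild-type array.

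With each array left out, medians ranged from -0.69 to -0.19 for the neutrophil ligands, from -0.11 to 0.20 for the effector lymphocyte ligands, from -0.25 to 0 for the homing ligands, and from -0.64 to 0.30 for the CCR2 ligands. The sign changed with an array left out for Ccl2 (-0.36 to 0.60), Ccl7 (-0.52 to 0.22), Ccl8 (-2.14 to 0.067), Ccl12 (-0.78 to 0.39), Ccl5 (-0.59 to 0.030), Ccl6 (-0.17 to 0.068), Cxcl2 (-0.93 to 0.13), Ccl1 (-1.18 to 0.021), Xcl1 (-0.33 to 0.23), Ccl27a (-0.25 to 0.066), Cxcl17 (-0.62 to 0.14) and Pf4 (-0.023 to 0.77). Under quantile normalization and normexp, Ccl6 was 0.024 and 0.069 and Xcl1 0.020 and 0.038. The cause was not tested. In these fits the single array left in a genotype was taken to have the same spread as the rest. Whether same-numbered arrays came from the same experiment is not stated in the sources used here. The correlation of their deviations was 0.19 over 2 pairs, too few to settle it. With the replicate block, 2 ligands were lower (Cxcl3 and Cxcl10) and 0 higher, and 3 receptors were lower. Ccl4 then had an unadjusted p of 0.0554 from limma. Medians have no value under the methods' t-test or the trended variance. For normexp the median spot signal was used. Dim probes, Cxcl13 above all, depend on the floor, and Cxcl15 had an unadjusted p of 0.190 under quantile normalization and 0.629 with normexp.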
